A study of Mus musculus with 6 samples.

Results

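The 10 genes examined here encode surface proteins by which LSK cells are divided into stem cells and progenitors: Kit, Slamf1, Cd48, Cd34, Procr, Esam, Tek, Cd9, Abcg2 and Cd93. LSK cells are the lineage-negative fraction of mouse bone marrow that carries Sca-1 and c-Kit. The genes were chosen by name, and every probe set annotated with 1 of these symbols alone was taken, 17 of 45037 probe sets that were not controls; for each gene the probe set with the highest mean signal was the main one. Cells came from F1 mice of a C57BL/6 by FVB/n cross. The 3 deficient arrays were from ERCC1-deficient (-/d) animals, which carry 1 knockout and 1 truncated allele in every cell, not in blood cells alone. The 3 proficient arrays were from litter mates, ERCC1-proficient (+/+) in litters 1 and 2 and (+/d) in litter 3, so that the control of litter 3 also had 1 truncated allele. Litter 1 was 22 weeks old and litters 2 and 3 were 20 weeks old, so age and litter cannot be told apart. The labels leave unsaid whether an array held cells of 1 mouse or of several, and p-values therefore concern these samples. In the main test (limma) they measure how far the litters disagree, moderated by the spread of other probe sets of similar signal. The comparison asked how expression in LSK cells differs when Ercc1 is reduced.

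Stem cells and multipotent progenitors share the LSK gate and are separated within it by further antibodies. Long-term stem cells are known to carry CD150 (Slamf1), the endothelial protein C receptor (Procr), ESAM and TIE2 (Tek) and to lack CD48 and, in adult mice, CD34, while progenitors gain CD48 and CD34. ABCG2 pumps out the dye that defines the side population of stem cells. Several of these proteins are also found on endothelium (Procr, Esam, Tek, Cd34, Cd93), on mast cells (Kit) or on platelets (Cd9, Esam). RNA was measured here, not protein on the cell surface, and in RNA of a sorted population fewer cells of a type and less RNA per cell cannot be told apart.

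Each array gave a scaled signal that was not allowed below a floor of 30, and between 52.3% and 58.6% of signals lay at that floor. Of the 17 probe sets of the 10 genes, 14 had a mean signal high enough to be tested, among them the main one of each gene; 2 probe sets of Slamf1 and 1 of Cd93 were not tested. Differences are deficient minus proficient in log2(signal + 30), with litter as a block, and p-values were adjusted over all 22519 probe sets tested. Precision is limited by there being 3 arrays in a group. Ercc1 itself was lower in the deficient array of all 3 litters, with ratios of 0.624, 0.141 and 0.254 in litters 1, 2 and 3 (log2 difference -1.36, standard error 0.27, adjusted p = 0.0138 in limma). The adjusted p of Ercc1 was 0.9998 without the litter block, 0.942 without the filter on mean signal, 0.0558 with no variance trend and between 0.615 and 0.718 with any 1 litter left out (limma). Whether its probes lie in the altered stretch of Ercc1 was not known, so it is a limited check of the labels. Sca-1 could not be checked, because Ly6a had no probe set of its own here.

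Among the 10 main probe sets, 1 passed the test, Procr, which fell in Ercc1-deficient cells; the other 9 did not pass. Called lower in this way were 0.52% of all probe sets tested, and called higher 0.315%. With no adjustment, p was under 0.05 for 5 lower genes, Kit, Procr, Esam, Tek and Abcg2, and 1 higher gene, Cd48, against 7.33% and 4.12% of all probe sets tested. Of these, Tek passed the filter on mean signal only through its proficient arrays, with a deficient mean of 31.8 against a cut of 32.6. Its sign and its p are therefore no free test of a lower signal. In all, 6 of the 10 differences were below 0, a share near the 54.0% of all probe sets tested. Kit, Cd34, Procr, Esam and Abcg2 were lower in all 3 litters, which was so for 17.0% of all probe sets tested, and Cd48 was higher in all 3, as were 11.3%. The groups did not overlap for Procr and Esam, both lower, against 4.89% of all probe sets tested, and for Cd48, higher, against 2.3%. The median log2 difference was -0.44 over the 10 genes and -0.03 over all probe sets tested; the genes were chosen with earlier results of these data known, and these counts describe them. Without the litter block 0 of the 10 passed (limma), as did 0.0% of all probe sets tested; 1 of the 10 then had an unadjusted p under 0.05, against 2.57% of all probe sets. An exact two-sided permutation test of the 6 signals of each gene, which takes no account of litters, gave p between 0.1 and 0.8; 0.1, found for Procr, Esam and Cd48, is the value of groups that do not overlap and the lowest possible, and with litters kept as pairs none could be below 0.25.

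**Figure D1:**
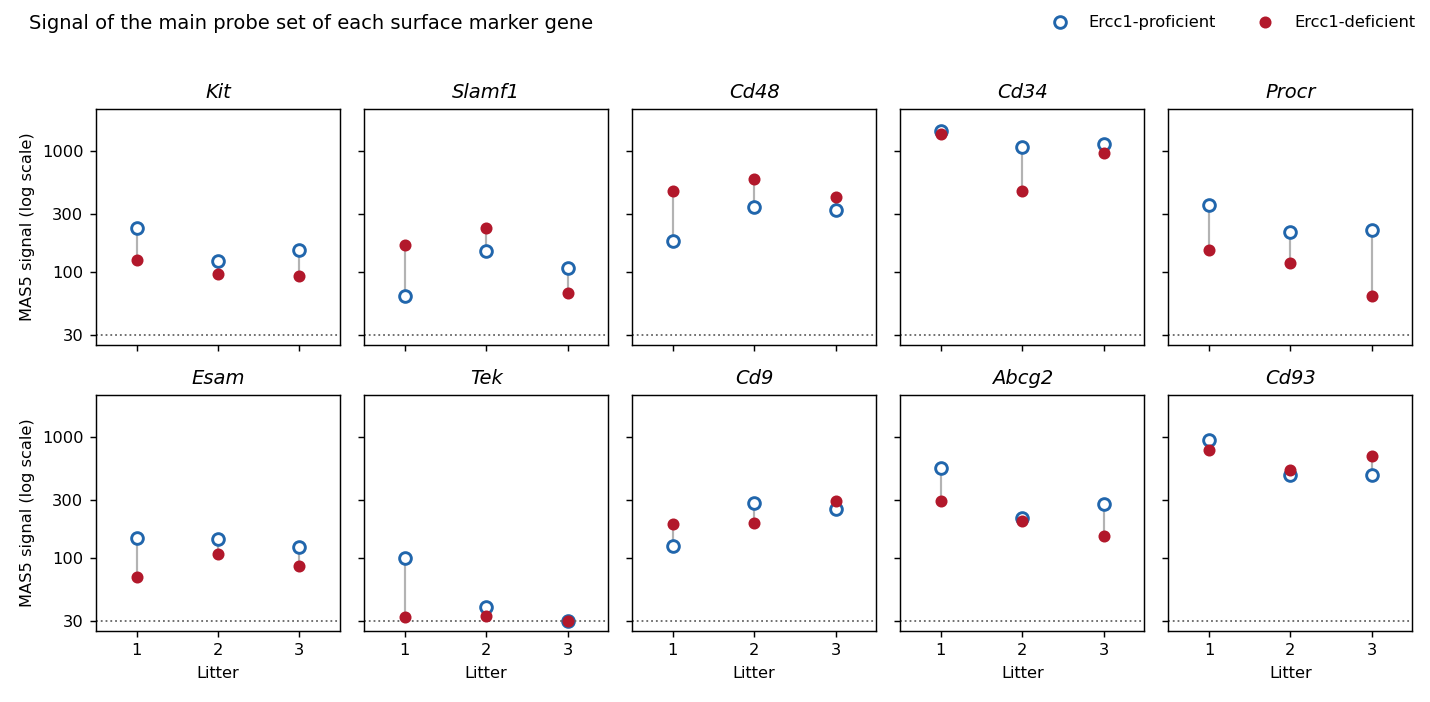
MAS5 signal (log axis) of the main probe set of each of the 10 genes in each litter; filled points are Ercc1-deficient arrays, open points Ercc1-proficient arrays, grey lines join litter mates and the dotted line is the floor of 30. In each litter the deficient array is the lower one for Procr and the higher one for Cd48, while Tek sits at the floor in both arrays of litter 3.

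Procr encodes the endothelial protein C receptor, which binds protein C and is often added to SLAM antibodies to sort stem cells. Its signal in deficient cells was 152, 117 and 63.1 in litters 1, 2 and 3, against 353, 213 and 219 in the proficient litter mates. The highest deficient array thus lay below the lowest proficient one. The deficient-over-proficient ratio was 0.431, 0.551 and 0.288, so the gap was widest in litter 3, whose control carries a truncated allele. The log2 difference came to -1.07 (standard error 0.24) and its 95% interval ran from -1.56 to -0.58 (limma, adjusted p = 0.0275). The adjusted p in limma was 0.9998 without the litter block, 0.942 without the filter on mean signal and 0.0813 after quantile normalization, and between 0.615 and 0.718 when any 1 litter was left out. Its probe set is of the kind named s_at, which can match several transcripts, and no second probe set of Procr was there to compare.

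Abcg2, the efflux transporter, was measured at 295, 199.5 and 151 in deficient cells of litters 1, 2 and 3 and at 546, 213 and 280.2 in proficient ones. Both arrays of litter 2 were nearly level, and the ratios were 0.541, 0.938 and 0.539. The log2 difference came to -0.56 (standard error 0.23) and did not pass (limma, adjusted p = 0.348). Esam, an adhesion molecule of endothelium, platelets and stem cells, read 69.4, 107.7 and 86.2 in deficient cells. Its proficient signals were 147, 143 and 124, all above the deficient ones. Its ratios were 0.473, 0.753 and 0.696, and its log2 difference of -0.52 (95% interval from -1.02 to -0.03) did not pass either (limma, adjusted p = 0.405).

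Kit, the receptor of stem cell factor and part of the sorting gate itself, gave opposite signs in its 2 probe sets. The main one read 125, 95.8 and 92.2 in deficient cells of litters 1, 2 and 3 and 231, 123 and 151 in proficient cells. The deficient array was lower in all 3 litters, but deficient cells of litter 1 lay just above proficient cells of litter 2, so the groups overlapped. Its log2 difference came to -0.53 (standard error 0.24; limma, adjusted p = 0.380). The second probe set, nearer the floor, had a mean of 64.0 ± 1.64 (SD, n = 3) in the deficient group and of 57.7 ± 12.3 (SD, n = 3) in the proficient one. Its log2 difference was 0.11 with a 95% interval from -0.33 to 0.54 (limma, adjusted p = 0.876). Neither passed, and the intervals of the probe sets overlap.

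Tek encodes the receptor of angiopoietins and was close to the floor. In deficient cells its signal was 32.4, 32.8 and 30 in litters 1, 2 and 3, the last being the floor. Proficient cells had 98.8, 38.9 and 30, so 1 array, that of litter 1, stood well above the rest. The log2 difference came to -0.39 (standard error 0.19; limma, adjusted p = 0.434) and was -0.07 without litter 1. Cd34, a sialomucin gained by progenitors, had 1370.3, 461 and 964 in deficient and 1449, 1079.8 and 1142 in proficient cells. It was lower in the deficient array of all 3 litters, yet the ratios were 0.946, 0.427 and 0.844, and the log2 difference of -0.50 (limma, adjusted p = 0.444) became -0.16 without litter 2.

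Cd48, the SLAM receptor that progenitors gain and long-term stem cells lack, read 465, 581 and 417 in the deficient arrays of litters 1, 2 and 3. Proficient cells had 180.4, 341 and 325, all below the deficient ones. The ratio was 2.58, 1.70 and 1.28, widest in litter 1 because of its low control. The log2 difference came to 0.76 (standard error 0.23) and its 95% interval ran from 0.28 to 1.24; it did not pass (limma, adjusted p = 0.153), and did so after median centring (adjusted p = 0.0466). Slamf1, which encodes CD150, the SLAM receptor that stem cells carry, measured 166, 229.6 and 66.3 in deficient and 63.6, 148 and 108 in proficient cells. It was higher in deficient cells of litters 1 and 2 and lower in those of litter 3, with ratios of 2.60, 1.55 and 0.615. Its log2 difference of 0.36 had a 95% interval from -0.20 to 0.93 (limma, adjusted p = 0.657) and was 0.015 without litter 1 and 0.80 without litter 3. Another 2 probe sets of Slamf1 were at the floor on all arrays but the deficient one of litter 2, where they read 36.7 and 34.3.

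**Figure D2:**
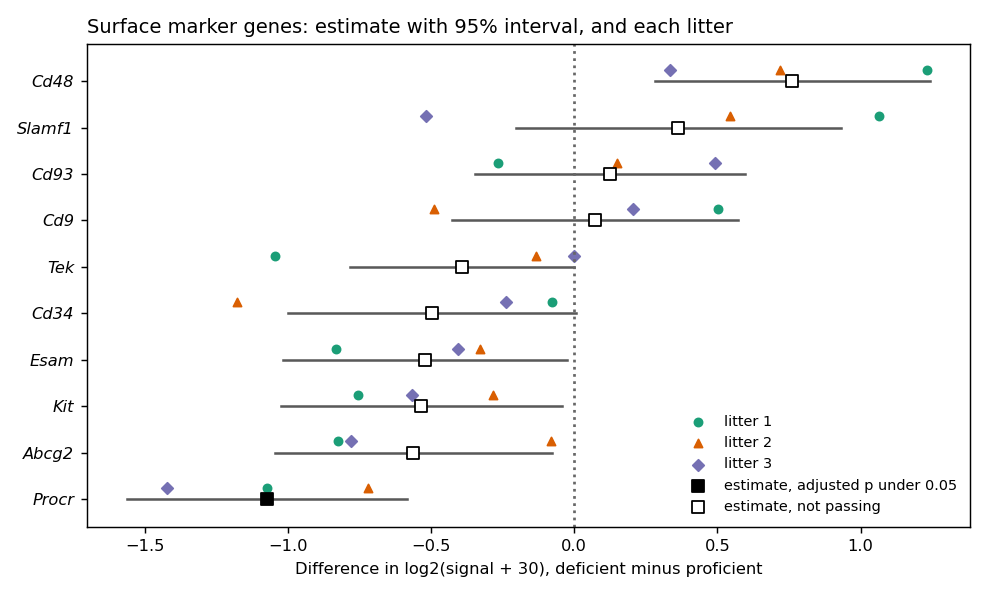
Difference in log2(signal + 30), deficient minus proficient, for the main probe set of each gene: squares are the litter-blocked estimates with 95% intervals, filled where the adjusted p is under 0.05, and small symbols above them are the differences within litters 1, 2 and 3. Procr is the 1 filled square, at -1.07, and Cd48 lies farthest to the right, at 0.76.

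Cd9 and Cd93 did not differ beyond the spread. Cd9, a tetraspanin found on stem cells and platelets, read 189, 194 and 295 in deficient cells and 125, 285 and 252 in proficient cells of litters 1, 2 and 3. The ratio was above 1 in litters 1 and 3 and below 1 in litter 2, and the log2 difference was 0.07 with a 95% interval from -0.43 to 0.57 (limma, adjusted p = 0.931). Cd93, a C-type lectin-like receptor known as AA4.1 in early progenitors, had 5 probe sets. Its main one read 776, 534 and 687 in deficient and 939, 479 and 479 in proficient cells, with a log2 difference of 0.13 (95% interval from -0.35 to 0.60; limma, adjusted p = 0.864). The next brightest read 1059.7, 146 and 566 in deficient and 1129, 215 and 586 in proficient cells. That probe set was lower in the deficient array of all 3 litters, with a log2 difference of -0.21 (limma, adjusted p = 0.760). The remaining 3 probe sets had mean signals between 30.6 and 51.3, near the floor.

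Some of these genes differed between litters. A moderated F test of the litter term, with genotype in the model, called 27.1% of all probe sets tested and 2 of the 10 main ones, Abcg2 (limma, adjusted p = 0.0312) and Cd34 (adjusted p = 0.0494), a share near the background. Among the other probe sets, the second one of Cd93 had the clearest litter pattern (limma, adjusted p = 4.66e-06). Its lowest array was 7.27-fold below its highest among deficient and 5.24-fold among proficient cells, litter 2 being lowest in both groups. The main Cd93 probe set varied only 1.45-fold and 1.96-fold in the same arrays, so these probe sets of 1 gene disagree on the size of the litter differences. Abcg2 was highest in litter 1 in both groups. Esam varied least among proficient cells, 1.18-fold from lowest to highest.

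Profiles over the 6 arrays were compared by the root mean square difference of log2(signal + 30), each centred on its own mean; Tek was left out because it reached the floor. The 2 most alike of the 10 genes were Kit and Abcg2, which differed by 0.21, followed by Kit and Esam at 0.31 and Procr and Abcg2 at 0.32. Slamf1 and Cd48 differed by 0.38. Procr and Cd48 were the least alike, at 1.06. Among 12408 probe sets that never touched the floor and belong to other genes, those nearest to Procr were of Tsc22d1 (0.10), Hoxa9 (0.14) and Ssbp2 (0.15). Nearest to Cd48 were Hacd2 (0.12), Hacd1 (0.12) and Spcs1 (0.13), to Esam Mllt3 (0.064), Evl (0.073) and Septin9 (0.091), and to Kit Zfp53 (0.024), AI429214 (0.055) and Nmt2 (0.061). For Slamf1 they were C1d (0.16), Rpl41 (0.16) and Yars2 (0.17), for Cd34 Uhrf2 (0.063), Tbc1d24 (0.12) and Asxl1 (0.14), and for Abcg2 Tut4 (0.077), AW549877 (0.078) and Nsun4 (0.10). For Cd9 they were Ppp1r8, Ddx49 and Nmt1, each at 0.068, and for Cd93 Tspan5 (0.064), Lnx2 (0.065) and Rock1 (0.068). With 6 arrays and strong litter differences, many profiles resemble each other, and these values are a description.

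Cd48 and Slamf1 lie next to each other on mouse chromosome 1, in a row of SLAM receptor genes that runs Cd244a, Ly9, Slamf7, Cd48, Slamf1, Cd84, Slamf6, Slamf9 and Slamf8 in the RefSeq table. Of the 9 genes, 6 were tested, 5 had a log2 difference above 0 and 0 passed with the litter block (limma). Over all probe sets tested, 54.0% were below 0. Cd48 and Cd244a had an unadjusted p under 0.05, in this direction, as did 4.12% of all probe sets tested (limma). Cd48 and Slamf1 are among the 10 marker genes already counted. The median log2 difference of the 6 tested SLAM genes was 0.33. Cd244a, which encodes the receptor for CD48, was higher in deficient cells of all 3 litters, with ratios of 2.10, 1.44 and 1.34 and a log2 difference of 0.61 (standard error 0.23; limma, adjusted p = 0.286). Slamf8 never left the floor.

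The promoters of Procr, Cd48 and Slamf1 are shown as examples. Procr was called lower, while Cd48, higher in every litter, and Slamf1, of mixed sign across litters, did not pass. RefSeq promoter sequences (build GRCm38.p6) matched 8 of the 10 genes. Each line gives the 250 bases before the annotated start, 5′ to 3′ on the plus strand, at chr2:155750967-155751216, chr1:171681742-171681991 and chr1:171766882-171767131 in that order. Capitals mark matches on either strand to AGATAA or to TGTGGT or to AGGAAG, chosen forms of the motifs of GATA, RUNX and ETS factors of blood cells. Other forms of these motifs were not searched for and are not marked.
Procr: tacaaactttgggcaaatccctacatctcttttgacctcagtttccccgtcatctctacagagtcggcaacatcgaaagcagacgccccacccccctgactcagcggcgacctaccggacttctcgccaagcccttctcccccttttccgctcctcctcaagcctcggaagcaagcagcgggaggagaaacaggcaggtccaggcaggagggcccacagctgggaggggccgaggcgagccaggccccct
Cd48: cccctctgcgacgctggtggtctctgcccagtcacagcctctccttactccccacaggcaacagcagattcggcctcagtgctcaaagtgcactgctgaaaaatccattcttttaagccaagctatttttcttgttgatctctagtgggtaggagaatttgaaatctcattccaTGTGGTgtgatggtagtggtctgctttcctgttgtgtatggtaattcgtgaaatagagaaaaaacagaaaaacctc
Slamf1: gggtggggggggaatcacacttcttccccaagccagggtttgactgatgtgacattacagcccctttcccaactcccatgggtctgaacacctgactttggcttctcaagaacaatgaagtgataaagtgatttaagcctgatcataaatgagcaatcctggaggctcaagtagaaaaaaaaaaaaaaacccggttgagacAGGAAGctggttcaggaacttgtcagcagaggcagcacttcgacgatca
Cd48 held 1 match to TGTGGT, which 14.0% of the 32851 RefSeq windows of this length held. Slamf1 held 1 match to AGGAAG, which 29.5% held. The Procr window held none of the 3, and AGATAA, found in 9.99% of windows, was in none of those shown. The Procr window was richer in CG pairs, with 13, against 4 for Cd48 and 3 for Slamf1. A match is no shown binding site, and a window without one says only that these letters are not in it.

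Other surface genes used to divide LSK cells or to label stem cells were taken as a list of 30 names; 24 had a probe set of their own and 18 were tested. Of these 12 had a log2 difference below 0 and 6 above, with a median of -0.21, and 54.0% of all probe sets tested were below 0. Robo4, below 0, passed the filter on mean signal only through its proficient arrays. Thy1, above 0, did so only through its deficient arrays, so neither sign was free. In the list 1 rose and 1 fell, against 0.315% and 0.52% of all probe sets tested. Prom1, which encodes the stem cell glycoprotein CD133, rose. It read 179.9, 393 and 941 in deficient cells of litters 1, 2 and 3 against 30, 176 and 162 in proficient cells, the first of these at the floor. All deficient arrays lay above all proficient ones, at least 6.00-fold in litter 1 and 2.23-fold and 5.82-fold in litters 2 and 3. The log2 difference came to 1.73 (standard error 0.25; limma, adjusted p = 0.000808). Flt3, the cytokine receptor gained by lymphoid-primed progenitors, fell, with ratios of 0.292, 0.474 and 0.530 (limma, adjusted p = 0.0349). Without the litter block both had an adjusted p of 0.9998 in limma, without the filter on mean signal 0.942, and for Flt3 it was 0.0940 after quantile normalization and 0.0565 with no variance trend. With any 1 litter left out, the adjusted p was between 0.557 and 0.718 for Prom1 and between 0.581 and 0.718 for Flt3 (limma).

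**Figure D3:**
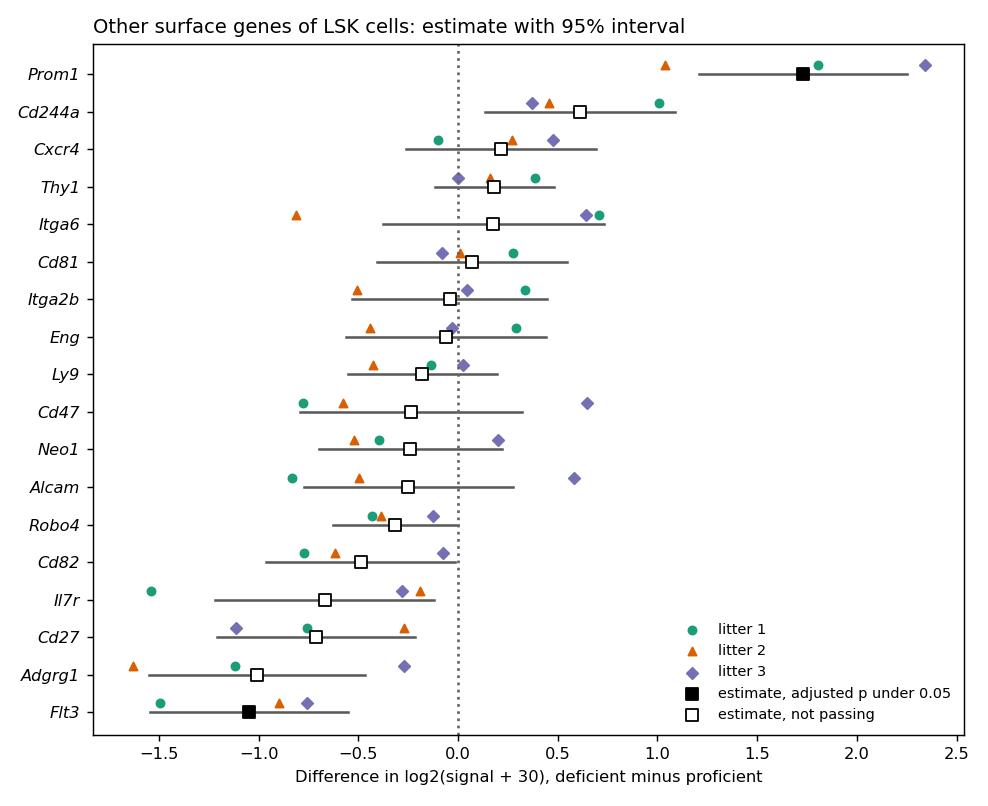
Difference in log2(signal + 30), deficient minus proficient, for the 18 tested genes of the list of other LSK surface genes; symbols are as in the plot of the 10 marker genes, with 95% intervals. Prom1 at 1.73 and Flt3 at -1.05 are filled, and the other 16 are not.

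Among the other genes of that list, Adgrg1, an adhesion receptor of stem cells, was singled out after its values were seen. It read 62.8, 40.8 and 63.0 in deficient and 171, 189.6 and 82.5 in proficient cells, lower in all 3 litters and without overlap, with a log2 difference of -1.01 (limma, adjusted p = 0.0765). Also chosen after its values were seen, Cd27, a receptor of the tumour necrosis factor family, had a log2 difference of -0.71 (limma, adjusted p = 0.213). The integrin gene Itga2b, the CD41 marker of stem cells primed for megakaryocytes, differed by -0.04 (95% interval from -0.53 to 0.45; limma, adjusted p = 0.957). Its difference turned to 0.05 after median centring and to 0.19 without litter 2.

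Ligands and partners of the 10 proteins were mostly dim: of 19 measured, 12 were tested and 5 were at the floor on all arrays, among them Proc, Tie1 and Cd2. Angpt1, the ligand of TIE2, read 912, 513 and 438 in deficient and 894, 671 and 976 in proficient cells, with a log2 difference of -0.48 (limma, adjusted p = 0.454) that was -0.17 without litter 3 and -0.74 without litter 1. F2r, the thrombin receptor through which protein C bound to Procr can signal, differed by -0.09 (limma, adjusted p = 0.913), and by 0.18 without litter 3. Selp, an adhesion receptor of platelets and endothelium, rose by its brightest probe set, with ratios of 2.68, 2.25 and 3.85 and a log2 difference of 1.16 (limma, adjusted p = 0.0163). Selp was the 1 gene of this list that passed, while 0.315% of all probe sets tested were called higher. The other 2 Selp probe sets had log2 differences of 0.75 and 0.22 and did not pass (limma, adjusted p = 0.172 and 0.764). The dimmest of them was lower in the deficient array of litter 2, with a ratio of 0.866. Without the litter block the adjusted p of the brightest was 0.9998 (limma), without the filter 0.942, and between 0.615 and 0.718 without any 1 litter.

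Relatives of Abcg2 and Cd9 were compared likewise. Of 8 ABC transporter genes, 7 had a log2 difference below 0, against 54.0% of all probe sets tested, with a median of -0.29. Called lower was 1 of them, against 0.52% of all probe sets tested, namely Abcg3. Every deficient array had it at the floor, and it read 73.4, 73.6 and 102 in proficient ones, at least 2.74-fold higher (limma, adjusted p = 0.0220, and 0.0712 with no variance trend). That bound is the mean log2 signal of proficient arrays against the floor. Abcg3 passed the filter on mean signal only through its proficient arrays, and its deficient arrays had no spread. Its sign and its p are therefore no free test of a fall. Its second probe set lay between 30 and 34.9 and showed no such gap. Without the litter block the adjusted p was 0.9998 (limma), without the filter 0.942 and without any 1 litter between 0.615 and 0.718. Abcg1 and Abcc1 differed by -0.17 and -0.25 and did not pass; the difference of Abcg1 was -0.034 without litter 1, and that of Abcc1 was -0.15 without litter 2 and -0.39 without litter 3. Of 15 tetraspanin genes, all tested and Cd9 among them, 9 were below 0 and 6 above, with a median of -0.31, and 0 passed (limma). Cd53, a tetraspanin of white blood cells, had ratios of 1.45, 1.86 and 1.21, and Tspan13 0.754, 0.808 and 0.537. Both had an unadjusted p under 0.05 (limma, 0.0292 and 0.0347), as did Cd82, lower in all 3 litters (limma, 0.0439). Of all probe sets tested, 4.12% were higher and 7.33% lower at that threshold. The log2 difference of Tspan13 went from -0.53 to -0.35 without litter 3. Podxl, the relative of Cd34, lay between 30 and 46.7, with a log2 difference of -0.07 that turned to 0.016 after median centring.

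Markers of other cell types moved with the groups to different degrees. For endothelium and stroma, which share Procr, Esam, Tek, Cd34 and Cd93, 5 of 15 genes were at the floor on all arrays, Sox17 and Mcam among them, while Pecam1 did not exceed 30.2 and Cdh5 did not exceed 30.8. The summed signal of that list was 469 to 640 in deficient and 524 to 682 in proficient arrays, not far above what 15 genes at the floor would give; its brightest gene was Vwf, which is also a gene of stem cells and platelets and differed by -0.46 (limma, adjusted p = 0.479), and the next, Cldn5, was above the floor on 1 array, the proficient one of litter 2. For maturing granulocytes the sum was 5900 to 88558 in deficient and 557 to 18809 in proficient arrays, with deficient-over-proficient ratios of 10.6, 5.51 and 4.71. Of 10 genes 9 were tested and all 9 had a difference above 0, while 54.0% of all probe sets tested were below 0. Called higher were 5, against 0.315% of all probe sets tested, namely Camp, Chil3, S100a9, Ngp and S100a8. The log2 difference of Camp was 2.75 (limma, adjusted p = 1.69e-06). Without the litter block each of these 5 had an adjusted p of 0.9998 (limma), without the filter 0.942, and without any 1 litter between 0.0533 and 0.718. Within each litter the deficient array had the higher granulocyte sum, the lower Procr and the higher Cd48 signal. Across litters the order could differ. The proficient array of litter 3 had a higher granulocyte sum than the deficient array of litter 1 (18809 against 5900). Its Procr signal was higher (219 against 152) and its Cd48 signal lower (325 against 465). The part of granulocyte RNA in the Procr and Cd48 differences was not tested.

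**Figure D4:**
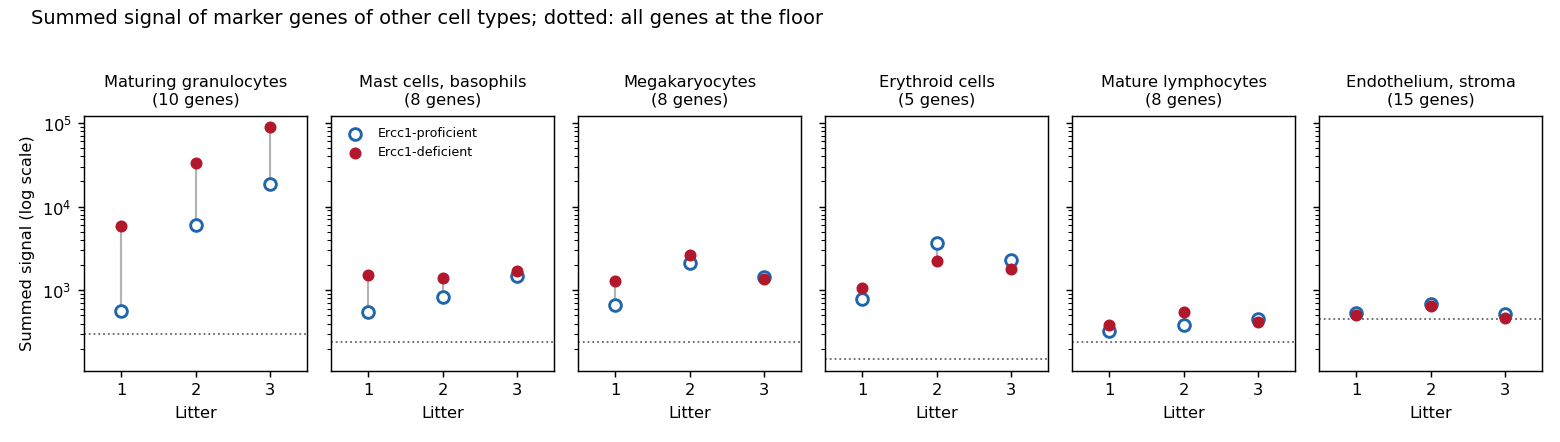
Summed signal (log axis) of the marker genes of 6 other cell types in each litter; filled points are Ercc1-deficient arrays, open points Ercc1-proficient arrays, and dotted lines show the sum if every gene were at the floor. In each litter the granulocyte sum of the deficient array is the higher one, and the endothelial and stromal sum stays close to its floor.

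Mast cell and basophil genes, of interest because such cells carry Kit, had sums of 1393 to 1683 in deficient and 549 to 1493 in proficient arrays, with ratios of 2.78, 1.70 and 1.13 in litters 1, 2 and 3. All 6 tested of 8 had a difference above 0, while 54.0% of all probe sets tested were below 0. Cma1, at the floor in every proficient array, passed the filter on mean signal only through its deficient arrays, so its sign was not free. Called higher was 1 of the 6, against 0.315% of all probe sets tested. That was Hdc, the histidine decarboxylase gene, with a log2 difference of 1.24 (limma, adjusted p = 0.00986, and 0.9998 without the litter block, 0.942 without the filter and between 0.557 and 0.718 without any 1 litter). Cpa3, a mast cell protease that early progenitors also express, had ratios of 3.13, 1.70 and 1.24, and Mcpt8 had 2.47, 1.99 and 0.660. The ratios of the list differed from gene to gene, with 5.004, 2.30 and 2.09 for Hdc, 2.84, 1.03 and 1.05 for Ms4a2 and 2.93, 0.853 and 0.708 for Fcer1a. Cpa3 had a log2 difference of 0.84 (limma, adjusted p = 0.128) that passed after median centring (0.0272) and was 0.50 without litter 1; that of Mcpt8, 0.46, was 0.14 without litter 1 and 0.98 without litter 3. Tpsb2 did not leave the floor. Megakaryocyte genes, of interest because platelets carry Cd9 and Esam, had sums of 1305 to 2649.6 in deficient and 667 to 2122 in proficient arrays, with ratios of 1.96, 1.25 and 0.954, but 5 of the 7 tested had a difference below 0 and 2 above, with a median of -0.07, and 0 passed (limma). The sums were carried by Pf4, which read 716, 2054 and 888 in deficient and 193, 1203 and 874 in proficient arrays. Its log2 difference of 0.84 (limma, adjusted p = 0.174) passed after median centring (0.0387) and was 0.39 without litter 1. Itgb3, an integrin of platelets, was lower in all 3 litters without overlap, with a log2 difference of -0.68 and an unadjusted p of 0.00616 (limma, adjusted p = 0.202). Mature lymphocyte genes summed to 382 to 555 against 322 to 459, with Cd3g, Cd4 and Cd79a at the floor on all arrays and Cd8a above it only in deficient cells of litter 2, and erythroid genes to 1069 to 2249 against 791 to 3659; 0 of the 5 and 4 tested passed (limma). The part of mast cell, basophil or megakaryocyte RNA in the differences of Kit, Cd48, Slamf1, Esam and Cd9 was not tested.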

How the data were processed

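Sorted LSK cells gave RNA that went through 2 rounds of linear amplification and onto Affymetrix mouse expression arrays, per the labels' protocols. Each deposited value is a linear probe set intensity (signal); the submitters' processing notes name MAS5. Neither the MAS5 version nor the scaling nor the origin of the floor at 30 was stated there. Amplification favours 3′ ends, and the floor hides differences among weak genes. Groups and litters came from the titles. The labels name arrays of equal number as litter mates, and what set each array apart from its group mean was shared with its litter mate, with r = 0.769, 0.672 and 0.461 across probe sets, so litter was a block.

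After removal of 64 control probe sets, the 22519 with a mean signal at or above the median were tested on log2(signal + 30) with limma 3.58.1 in R 4.3.3 (lmFit, eBayes with a variance trend, Benjamini-Hochberg adjustment over all tested, threshold 0.05). The filter used the mean of all 6 arrays. Ratios within litters are of signals without a pseudocount. Probe sets were named by the platform annotation of 2016; 34945 had 1 gene symbol, and 34741 of these matched the RefSeq table of GRCm38.p6. The fit was tested on simulated data.

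The members and lists were chosen with earlier results of these data known. Named were all members, Ercc1 and the 3 nearest profiles of each member. Of each other list, the genes that passed were named (up to 6 of smallest p) or, where fewer than 2 passed, its 2 brightest. Adgrg1, Cd27, Cd82, Cd177, Cma1, Fcer1a, Itgb3, Mmp9, Ms4a2, Robo4, Thy1 and the genes named only as at or near the floor fall outside this rule. They were chosen after their values were seen. Other pseudocounts, filters, normalizations, the fit without a block, no variance trend, averaging the probe sets of a gene and leaving out each litter were alternatives. With litter as a block, leaving out 1 array removes its litter mate from the comparison, so whole litters were left out.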

Additional observations from a re-analysis of the deposited data

Results flagged for a closer look

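The 5 results here moved 1 way in litter 1, aged 22 weeks, and the opposite way in both litters aged 20 weeks; the difference was not tested, and with 1 older litter age and litter cannot be told apart. The dimmer Kit probe set had a log2 ratio of deficient over proficient signal of -0.18 in litter 1 and of 0.48 and 0.20 in litters 2 and 3. The main Cd93 probe set had -0.28, 0.16 and 0.52 in the same order. For Angpt1 the ratio was 0.029 in litter 1 and below 0 in both others, and for Car1, a carbonic anhydrase of erythroid cells, it was 0.80 against -0.98 and -0.58. Tfrc, the transferrin receptor, had -0.053 in litter 1 and values above 0 in litters 2 and 3. None of these genes passed the test between genotypes.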

How the results depend on the processing

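Without the litter block, without a filter and with any litter left out no probe set was called between genotypes, so those settings say nothing about genes that did not pass. The call of Procr ended without the litter block (log2 difference -1.07), without a filter (-1.07) and after quantile normalization (-0.998), and its difference lay between -1.25 and -0.90 with a litter left out. Cd48 passed after median centring, at 0.85. Cd9 lay between -0.14 and 0.35 with a litter left out, and Cd93 between -0.059 and 0.32, or at -0.034 as the mean over its probe sets. No value came from the stricter filter for Tek, which it removed. Among all probe sets, 71 were called higher and 117 lower in limma. Both counts were 0 without the block, where 579 had an unadjusted p under 0.05, 0 without a filter (1825), and 0 without litter 1 (1288), litter 2 (1387) or litter 3 (1705). After median centring 193 were higher, 58.1% of calls against 37.8%; quantile normalization left 73 lower and no variance trend 65. Calls between litters numbered 6113, 0 without a filter and 0 to 4434 with a litter left out. Of other genes, Tfrc lay between 0.039 and 0.31, F2r lay between -0.32 and 0.18, Itga2b between -0.23 and 0.19 (0.048 after median centring), Cd79b between -0.13 and 0.13 and Car1 between -0.77 and 0.083 with a litter left out, and Podxl was 0.016 after median centring. All 11 other named genes that passed lost their call without the block, without a filter and without each litter, 3 with no variance trend and 1 after quantile normalization. Median centring raised every log2 difference by the same amount, the median over all probe sets tested going from -0.029 to 0.062. The cause of the other changes was not tested. Signals near the floor, as for Tek and the dimmer probe sets of Slamf1 and Cd93, limit what can be seen.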
